A study of Mus musculus with 26 samples.

Results

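The genes described here are 36 genes of glycolysis and of the response to low oxygen, followed through all 26 RNA-seq libraries of a study of mouse gastruloids. They were chosen by name, with no limit on measured values, from 55141 genes in the count table. Earlier results of these data were known at that choice. Each gene was found in the table once its symbol was matched. Glucose and lactate transport is represented by 3 of them, the steps from hexokinase to pyruvate kinase by 15, lactate dehydrogenase and the pyruvate dehydrogenase kinases by 4, the enzymes of fructose-2,6-bisphosphate by 2, the oxygen sensors Egln1 and Egln3 by 2, and other hypoxia targets by 10. The symbol Aldoa stands beside 2 identifiers, and the one with more reads was used (ENSMUSG00000030695). The second Aldoa identifier held 0.600 to 4.79 CPM (reads scaled to a common library size).

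Gastruloids are balls of mouse embryonic stem cells that lengthen in culture and form trunk and tail tissues. Every one of the 8 lines has the allele HoxB Del/Del(i9-13), alone in the line called Del here. The line Ins has Ins(CBS5-10) besides. Lines InsDel5to10, InsDel7to10 and InsDel8to10 have that insertion and a deletion: Del(CBS5-10) in the first, Del(CBS7-10) in the second, Del(CBS8-10) in the last. Lines InvClone1 and InvClone2, clones 1 and 2 of 1 genotype, have Ins(CBS5-10) and Inv(CBS5-10), and InvDel7to10 has both of these and Del(CBS7-10). The sources used here do not give whether the other lines are 1 clone each, nor the meaning of i9-13 and CBS. All 8 lines were collected at 120h after aggregation, with 4 libraries for InvClone1, 3 for Del, 3 for Ins, 2 each for InsDel5to10, InsDel7to10 and InvClone2, and 1 for InsDel8to10 and for InvDel7to10. The 144h stage has 1 library for Del, Ins, InsDel8to10 and InvDel7to10 and 2 for InvClone1, the sole line at 96h and 168h (1 library at each). Each library also carries a label: ISML_first (replicates 1 and 2 of Del and Ins), ISML_second (10 libraries, 5 lines at 120h and 144h), ISML_third (10 libraries) or TruSeq_second (replicates 2 and 3 of InvClone1 at 120h). Since the labels name no separate cultures behind the replicates, each p-value here measures only the spread of these samples, which may be technical.

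Glycolysis splits glucose into pyruvate, and lactate dehydrogenase turns pyruvate into lactate where glycolysis runs faster than the mitochondria use it. Under low oxygen the prolyl hydroxylases of the Egln family stop marking the factor HIF for destruction, and HIF, bound to Arnt, then switches on glycolytic genes, vascular growth factors, collagen prolyl hydroxylases and its own inhibitors Egln1 and Egln3. Many of these genes also follow growth signals with no lack of oxygen, and the tail bud and presomitic mesoderm of vertebrate embryos are known for high glycolysis.

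Of the 36 genes, 35 passed the filter on low counts. Car9, a carbonic anhydrase that HIF induces strongly, did not pass, with 0 to 11 reads in each library. Total counts ran from 18746411 to 37716547 reads, so that 3 reads corresponded to 0.0778 to 0.165 CPM. The library labelled InvClone1 at 144h, replicate 2, stood apart: mitochondrially encoded transcripts made up 0.0864% of its reads against 0.587 to 1.51% in the other libraries. Replicate 2 of InvClone1 at 120h had reads on 54.8% of genes against 37.5 to 43.4% in the others. Results that rest on the first of these are also given without it. Leaving out both libraries changed no count of passing genes among the 35 in the comparisons of lines at 120h and of library labels. For the labels the genes behind that count did change, because Vegfa then missed the threshold (edgeR adjusted p = 0.0526). The summed level of 7 presomitic markers was 303 to 407 CPM in the 120h ISML_second libraries and that of 8 erythroid genes only 0.133 to 0.332 CPM. In these bulk libraries fewer cells of a type and less RNA per cell cannot be told apart.

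The enzymes were among the abundant transcripts. The 17 enzymes from hexokinase to lactate dehydrogenase took between 0.766% of all reads (InvClone1 at 120h, replicate 1) and 1.78% (Del at 120h, replicate 2), and the other 19 genes together between 0.130% and 0.318%. Levels of different genes were compared only in FPKM, which divides by transcript length, and only in the 10 ISML_second libraries, because FPKM per CPM differed between labels (for Eno1 its median was 2.04 times as high in ISML_first as in ISML_second). Gapdh, which oxidizes glyceraldehyde-3-phosphate, led with a median of 1039 (949 to 1107) FPKM, before Pkm, the pyruvate kinase of embryonic tissue, with 726 (692 to 1506) and Ldha with 619.9 (565 to 826). The ranges of Pkm and Ldha overlapped, so their order was not beyond the spread of libraries. Slc2a1, the main glucose importer of embryonic cells, stood at 154 (134 to 174) and Slc2a3, a second importer, at 62.4 (34.7 to 77). Among the hypoxia targets Ddit4, an inhibitor of mTOR, was highest with 75.9 (54.4 to 98.1) and Car9 lowest with 0.0264 (0 to 0.0600).

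**Figure D1:**
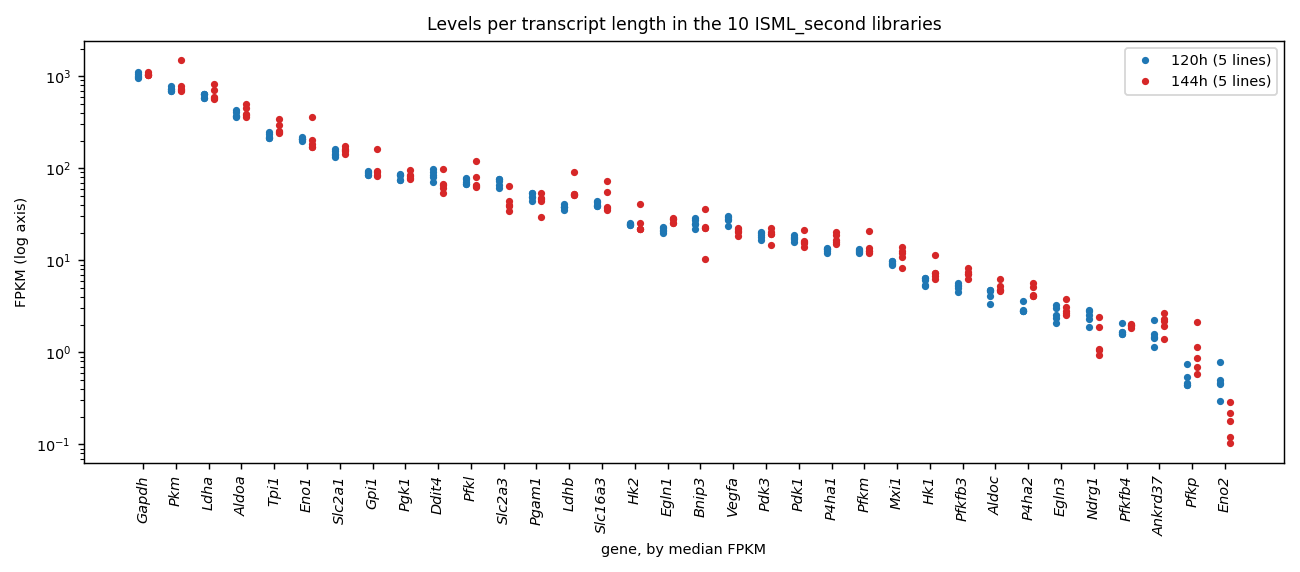
Levels in FPKM (log axis) of 34 genes in the 10 ISML_second libraries, ordered by median (Adm and Car9, which are near 0, are left out). Blue points are the 5 lines at 120h and red points the same lines at 144h. Gapdh, Pkm and Ldha lie at the top and Pfkp and Eno2 at the bottom.

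Where a step has several isoforms, 1 dominated. In all 10 ISML_second libraries the FPKM of Hk2, the inducible hexokinase, exceeded that of Hk1 (median ratio 3.66, range 3.01 to 4.74). Pfkl, the liver-type phosphofructokinase, exceeded Pfkm (median ratio 5.58), and Pfkm exceeded Pfkp (median ratio 19.5), also in all 10. Aldoa stood 88.8 times above Aldoc in the median library, Eno1 724 times above the neuronal enolase Eno2, and Ldha 14.4 times above Ldhb. Among the regulators Pfkfb3 exceeded Pfkfb4 (median ratio 3.42), Egln1 exceeded Egln3 (median ratio 8.67) and P4ha1 exceeded P4ha2 (median ratio 3.94) in all 10. Slc2a1 was above Slc2a3 in all 10 as well (median ratio 2.36), whereas Pdk3 was above Pdk1 in 7 of 10 (median ratio 1.11). Eno1b, a near-identical copy of Eno1, held 29.6 to 420.5 CPM, so reads could be split between them and the values of Eno1 are uncertain. Gapdh, Pgk1, Pgam1, Ldha and Aldoa also have near-identical copies, and those looked up each held less than 2 CPM in every library.

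The genes differed in how far they spread over the 26 libraries. Pfkfb4 had the narrowest range of the 34 genes with reads in every library at a level above 0, from 7.06 to 13.2 CPM with a median of 8.61. Pdk3, Pfkm, Gpi1 and Mxi1, an antagonist of Myc, came next, with 45.9 to 89.8, 55.3 to 116, 375 to 790.1 and 26.9 to 57.0 CPM. The widest ranges belonged to Pfkp, from 1.45 to 28.9 CPM, to Slc16a3, from 31.8 to 279.6 CPM, and to Egln3, from 3.34 to 28.5 CPM.

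HIF binds short sites with the core ACGTG or GCGTG. RefSeq promoters of the mouse build GRCm38.p6, each running from 250 bases before to 50 bases after a gene's start, were available for 34 of the 36 genes (not for Slc2a3 and Ndrg1). At least 1 promoter of 31 of these 34 genes (91.2%) held ACGTG or GCGTG on either strand, against 46.7% of all 27025 genes in the table. ACGTG alone was found in 24 of 34 (70.6%) against 21.8% of all genes, and Gpi1, Tpi1 and Eno2 had neither. A gene with more promoters has more chances of a match. Counted per promoter, 40 of 50 (80%) held either core, against 43.8% of all 32851 promoters. For ACGTG alone it was 28 of 50 (56%) against 19.6%. A match describes letters, not a bound site. The promoters with most matches are shown for Pfkfb3, P4ha2, Pfkp and P4ha1, which rose between 120h and 144h (next paragraphs), and for Ldha, which has the most matches of all the genes and was added after its count was seen. Capitals mark each core on the strand shown or, as CACGT or CACGC, on the opposite strand, and CACGTG counts on both.
Pfkfb3: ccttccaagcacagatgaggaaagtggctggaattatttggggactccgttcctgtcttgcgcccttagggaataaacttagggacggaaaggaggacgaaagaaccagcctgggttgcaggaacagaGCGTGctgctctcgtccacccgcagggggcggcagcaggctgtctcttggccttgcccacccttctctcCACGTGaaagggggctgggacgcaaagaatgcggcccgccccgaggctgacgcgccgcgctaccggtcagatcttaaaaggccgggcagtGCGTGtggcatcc
P4ha2: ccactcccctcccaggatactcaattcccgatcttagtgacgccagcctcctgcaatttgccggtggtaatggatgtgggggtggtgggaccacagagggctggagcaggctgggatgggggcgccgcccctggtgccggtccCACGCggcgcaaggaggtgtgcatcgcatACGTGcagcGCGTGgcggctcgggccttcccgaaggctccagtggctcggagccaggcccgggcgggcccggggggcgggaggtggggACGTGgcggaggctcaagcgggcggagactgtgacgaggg
Pfkp: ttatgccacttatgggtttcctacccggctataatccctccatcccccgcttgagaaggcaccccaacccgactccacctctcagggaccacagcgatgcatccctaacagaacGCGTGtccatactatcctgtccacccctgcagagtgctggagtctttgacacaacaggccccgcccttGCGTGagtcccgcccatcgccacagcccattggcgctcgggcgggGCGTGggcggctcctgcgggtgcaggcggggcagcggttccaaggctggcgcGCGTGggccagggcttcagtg
P4ha1: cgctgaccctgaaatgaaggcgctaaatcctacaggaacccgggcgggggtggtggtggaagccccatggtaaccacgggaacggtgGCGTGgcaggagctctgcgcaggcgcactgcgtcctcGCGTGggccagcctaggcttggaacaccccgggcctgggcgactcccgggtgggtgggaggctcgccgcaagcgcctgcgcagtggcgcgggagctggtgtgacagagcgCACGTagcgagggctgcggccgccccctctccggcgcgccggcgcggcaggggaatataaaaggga
Ldha: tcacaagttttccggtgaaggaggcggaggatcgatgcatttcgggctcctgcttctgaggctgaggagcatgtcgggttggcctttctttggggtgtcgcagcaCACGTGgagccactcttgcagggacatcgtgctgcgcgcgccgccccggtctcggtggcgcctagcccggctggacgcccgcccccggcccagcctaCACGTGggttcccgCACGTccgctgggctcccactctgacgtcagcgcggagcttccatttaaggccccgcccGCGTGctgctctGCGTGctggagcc

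These windows lie at chr2:11502041-11502340, minus strand (Pfkfb3, 4 matches), chr11:54100674-54100973, plus strand (P4ha2, 4 matches), chr13:6648722-6649021, minus strand (Pfkp, 4 matches), chr10:59323046-59323345, plus strand (P4ha1, 3 matches) and chr7:46845554-46845853, plus strand (Ldha, 7 matches). All matches of Pfkp are GCGTG, whereas 5 of the 7 in Ldha are ACGTG. Each window is printed from 5′ to 3′ on the strand of its gene.

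Between the lines at 120h, none of the 35 genes passed the threshold. This held for Ins against Del (0 of 35, against 0.00563% of all 17769 genes tested), for InvClone1 against Ins (0 of 35, against 0.0169%), for InsDel5to10 against InvClone2 (0 of 35, against 0.152%), for InsDel7to10 against InvClone2 (0 of 35, against 0.141%) and for InsDel7to10 against InsDel5to10 (0 of 35, against 0.253%). The test was the edgeR quasi-likelihood F-test with a term for the library label and p-values adjusted over all genes (Benjamini-Hochberg, threshold 0.05). At an unadjusted p under 0.05 there were 0, 0, 1, 1 and 2 of the 35 in these comparisons, against 1.06%, 0.951%, 6.53%, 8.93% and 10.7% of all genes. DESeq2 called 0 of them in each of the 5. With shares this low over all genes, 0 calls among 35 is not a result about these genes. Without the filter on low counts 5, 3 and 6 of the genes passed in the 3 comparisons among InsDel5to10, InsDel7to10 and InvClone2 (in the order above), Aldoc and Slc2a3 among them, against 1.03%, 1.49% and 2.58% of all genes.

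For Ins against Del, the fitted log2 change was below 0 for 34 of the 35 genes, with a median of -0.21 against a median near 0 over all genes tested. The lowest unadjusted p belonged to P4ha2, a collagen prolyl hydroxylase. Its level was 11.4, 26.1 and 11.6 CPM in Del and 12.0, 10.7 and 10.8 CPM in Ins (replicates 1, 2 and 3; log2 fold change -0.52, SE 0.32, adjusted p = 1, edgeR). Slc2a3 stood at 527, 902 and 392 CPM in Del and at 509, 472 and 332 CPM in Ins (log2 fold change -0.44, SE 0.34, adjusted p = 1, edgeR). For both genes replicate 2 of Del was the highest of the 6 libraries, and the groups overlapped. Aldoc, the brain-type aldolase, showed the same order with 18.9, 43.7 and 15.1 CPM in Del and 20.1, 12.2 and 14.8 CPM in Ins (log2 fold change -0.66, SE 0.50, adjusted p = 1, edgeR). The groups overlapped for all 35 genes, while 3.71% of all genes tested did not overlap. Without replicate 2 of Del the median over the 35 genes was 0.01.

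For InvClone1 against Ins, the median over the 35 genes was 0.23 with the library label in the fit and -0.13 without it. Pfkm, the muscle-type phosphofructokinase, stood at 55.3, 76.6, 67.6 and 76.5 CPM in InvClone1 (replicates 1 to 4) and 78.7, 74.1 and 68.9 CPM in Ins (log2 fold change 0.23, SE 0.13, adjusted p = 1, edgeR). Pkm stood at 1681, 3219.5, 2325 and 2494 CPM in InvClone1 and 2945, 2748 and 2331 CPM in Ins (log2 fold change 0.38, SE 0.30, adjusted p = 1, edgeR). The lowest value of each gene came from replicate 1 of InvClone1, which is its ISML_third library at that stage, and the groups overlapped. Hk2 was 169, 152, 131 and 184 CPM in InvClone1 and 174, 134 and 180.3 CPM in Ins (log2 fold change 0.41, SE 0.32, adjusted p = 1, edgeR). The groups overlapped for all 35 genes, against 3.76% of all genes without overlap.

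The 3 ISML_third lines gave 2 libraries each, and the comparisons among them share libraries. Eno2 stood at 1.10 and 2.27 CPM in InsDel5to10, 1.10 and 1.33 CPM in InsDel7to10 and 0.457 and 0.745 CPM in InvClone2 (replicates 1 and 2). Its log2 change against InvClone2 was 1.48 in InsDel5to10 (edgeR adjusted p = 0.724) and 1.00 in InsDel7to10 (edgeR adjusted p = 0.571), at about 1 CPM. Slc2a3 was 684 and 978 CPM in InsDel5to10 and 308 and 330.1 CPM in InsDel7to10 (log2 fold change -1.38, SE 0.42, adjusted p = 0.272, edgeR), with 683 and 397 CPM in InvClone2. Both InsDel7to10 libraries lay below all 4 others, and the adjusted p missed the threshold.

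The remaining leading genes of these comparisons were led by single libraries or small gaps. Aldoc was 25.9 and 67.7 CPM in InsDel5to10 against 27.3 and 12.9 CPM in InvClone2 (log2 fold change 1.22, SE 0.61, adjusted p = 0.771, edgeR). Pgam1, phosphoglycerate mutase, was 184 and 232 CPM in InsDel5to10 against 196 and 148 CPM in InvClone2 (log2 fold change 0.28, SE 0.17, adjusted p = 0.774, edgeR). Eno1 was 1285 and 1013 CPM in InsDel7to10 against 1753 and 1351 CPM in InvClone2 (log2 fold change -0.43, SE 0.19, adjusted p = 0.544, edgeR). Its groups did not overlap, but by less than the gap between the InvClone2 replicates. Ankrd37, a small ankyrin-repeat protein induced by HIF, was 4.28 and 1.38 CPM in InsDel7to10 against 1.28 and 1.69 CPM in InvClone2 (log2 fold change 0.92, SE 0.47, adjusted p = 0.609, edgeR). Pfkp was 3.10 and 28.9 CPM in InsDel5to10 and 4.61 and 2.19 CPM in InsDel7to10 (log2 fold change -2.24, SE 1.10, adjusted p = 0.508, edgeR). Adm, the vessel-dilating peptide adrenomedullin, had 2 and 67 reads in InsDel5to10 and 5 and 0 reads in InsDel7to10. For Aldoc, Pfkp and Adm the high value was replicate 2 of InsDel5to10 alone. Groups did not overlap for 4 of 35 genes in InsDel5to10 against InvClone2 (all genes 38.2%), for 6 of 35 in InsDel7to10 against InvClone2 (all genes 33.3%) and for 8 of 35 in InsDel7to10 against InsDel5to10 (all genes 31.9%). These shares are all below those of all genes.

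Within the ISML_second label, where each of 5 lines has 1 library at 120h and 1 at 144h, 0 of 35 genes differed among the lines once stage was in the fit, against 0.0333% of 15011 genes tested. At an unadjusted p under 0.05 there were 6 of 35 (all genes 4.51%), with Slc16a3, Aldoa and Tpi1 at the top (edgeR adjusted p = 0.744 for each). Without InvClone1 at 120h, which leaves the 144h library that stands apart as the sole one of its line, 21 of 35 passed (44% of all genes), and without that 144h library 2 passed (0.925% of all genes). Slc16a3, a lactate exporter, was 118, 135, 120.1, 142 and 119 CPM at 120h and 116, 162, 112, 219 and 105 CPM at 144h in Del, Ins, InsDel8to10, InvClone1 and InvDel7to10. Aldoa was 869, 956, 860.1, 994 and 849 CPM at 120h and 888, 1002, 854, 1193 and 820.2 CPM at 144h in that order. Ins and InvClone1 were the highest lines for both genes at both stages. Tpi1, triose-phosphate isomerase, was 530.0, 556, 509.8, 594 and 512 CPM at 120h and 567, 661, 579, 901 and 566 CPM at 144h.

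**Figure D2:**
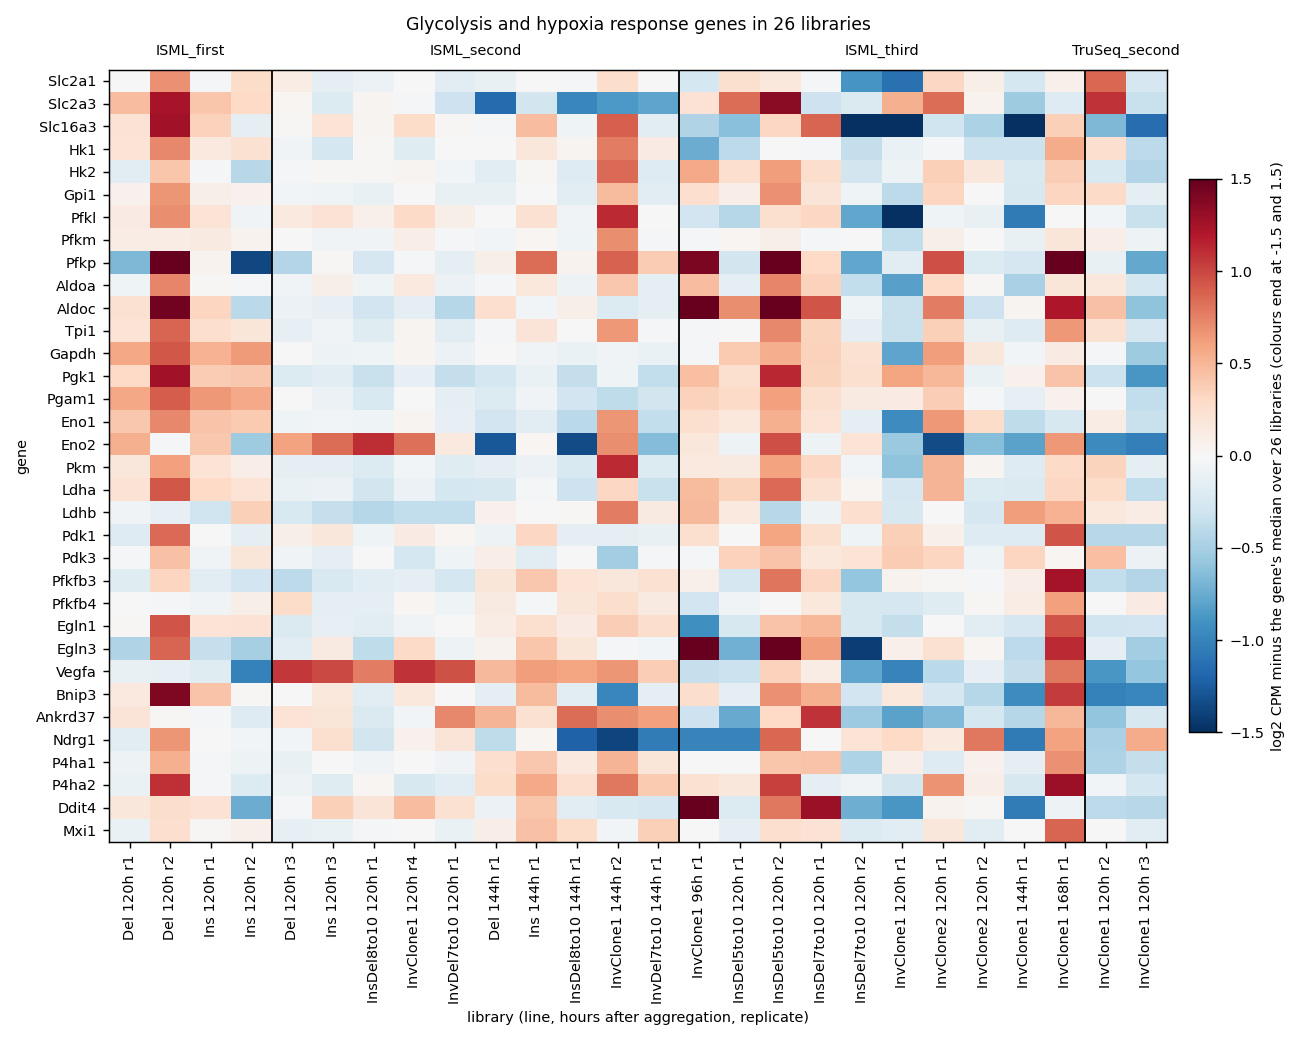
Level of 34 genes (rows; Adm and Car9 are left out) in each of the 26 libraries (columns, grouped by library label), as log2 CPM minus the gene's median over the libraries. Red is above and blue below the median, and colours end at -1.5 and 1.5. Whole columns differ: Del replicate 2 and InsDel5to10 replicate 2 at 120h are red for most genes, and InvClone1 replicate 1 at 120h is blue for most enzymes.

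Replicates of 1 group and 1 library label differed widely in these genes. There are 6 such pairs, and the library placed first in each was chosen after the values were seen, so the counts below are descriptions with no test. In Del at 120h, 19 of 35 genes were at least 1.5-fold higher in replicate 2 than in replicate 1, against 10.5% of all genes, and 0 were as much lower (all genes 6.85%). In InsDel5to10, 19 of 35 were at least 1.5-fold higher in replicate 2 than in replicate 1 (all genes 15%) and 0 lower (all genes 9%). In InsDel7to10, 15 of 35 were higher in replicate 1 than in replicate 2 (all genes 21.2%) and 0 lower (all genes 9.11%). The median ratio over the 35 genes was 1.52 in Del, 1.58 in InsDel5to10 and 1.34 in InsDel7to10, against 1.01, 1.02 and 1.00 over all genes. At a 2-fold limit, added after the values were seen, the counts were 8, 6 and 7 of 35 (all genes 4.96%, 7.36% and 10.9%).

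The other pairs differed less. In InvClone2, 6 of 35 genes were at least 1.5-fold higher in replicate 1 than in replicate 2 (all genes 6.81%) and 2 lower (all genes 13.7%). In Ins, 1 of 35 was higher in replicate 2 than in replicate 1 (all genes 7.42%) and 6 were lower (all genes 9.98%). In the TruSeq_second pair of InvClone1, 6 of 35 were higher in replicate 2 than in replicate 3 (all genes 9.1%) and 1 lower (all genes 10.7%). At any size, 29, 9 and 27 of 35 were higher in these pairs (all genes 48.2%, 53.2% and 54.0%). In Del, InsDel5to10 and InsDel7to10 it was 30, 33 and 28 (all genes 51.6%, 52.4% and 50.4%).

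By role, the oxygen sensors differed in all 3 of the first pairs. Egln1 was 105 and 199.6 CPM in Del, 88.2 and 140.3 CPM in InsDel5to10 and 146 and 87.9 CPM in InsDel7to10 (replicates 1 and 2). Egln3 was 6.50 and 16.2 CPM, 5.40 and 25.3 CPM and 13.7 and 3.34 CPM in the same libraries. In each pair the library with more Egln1 also had more Egln3. Among the other hypoxia targets, Bnip3, which marks mitochondria for removal, was 68.8 and 165 CPM in Del, 56.7 and 100.5 CPM in InsDel5to10 and 89.7 and 51.2 CPM in InsDel7to10. Slc16a3 was 136 and 279.6 CPM, 76.0 and 146 CPM and 215 and 40 CPM. Here InsDel7to10 replicate 1 stood 5.39-fold above replicate 2.

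Among the enzymes from hexokinase to lactate dehydrogenase, Pfkp and Aldoc had the widest gaps in Del and InsDel5to10, and Pfkl in InsDel7to10 (2.13-fold, against 2.10-fold for Pfkp and 2.01-fold for Aldoc). Of the other minor isoforms, Hk1 was 1.42-fold, 1.32-fold and 1.26-fold higher in the first-named library of each pair, Ldhb was lower there in all 3, and Eno2 was 2.06-fold higher in InsDel5to10 but lower in the other pairs. Pfkp, the platelet-type phosphofructokinase, was 2.35 and 15.1 CPM in Del and 3.10 and 28.9 CPM in InsDel5to10, which is 6.41-fold and 9.30-fold higher in replicate 2. Aldoc was 18.9 and 43.7 CPM and 25.9 and 67.7 CPM in these libraries. Aldoa differed by less and was 862 and 1500.3 CPM in Del, 816 and 1495 CPM in InsDel5to10 and 1147 and 698 CPM in InsDel7to10. Pgk1, which makes the first ATP of glycolysis, was 479 and 928 CPM in Del and 459 and 848 CPM in InsDel5to10 but 489.6 and 459 CPM in InsDel7to10. Pfkm and Pfkfb4 hardly differed, with 77.1 and 77.3 CPM and 8.57 and 8.43 CPM in Del. In all 3 pairs together 8 of 35 genes were at least 1.5-fold higher in the first-named library (Slc16a3, Pfkp, Aldoa, Aldoc, Egln1, Egln3, Adm and Bnip3), against 2.34% of all genes.

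**Figure D3:**
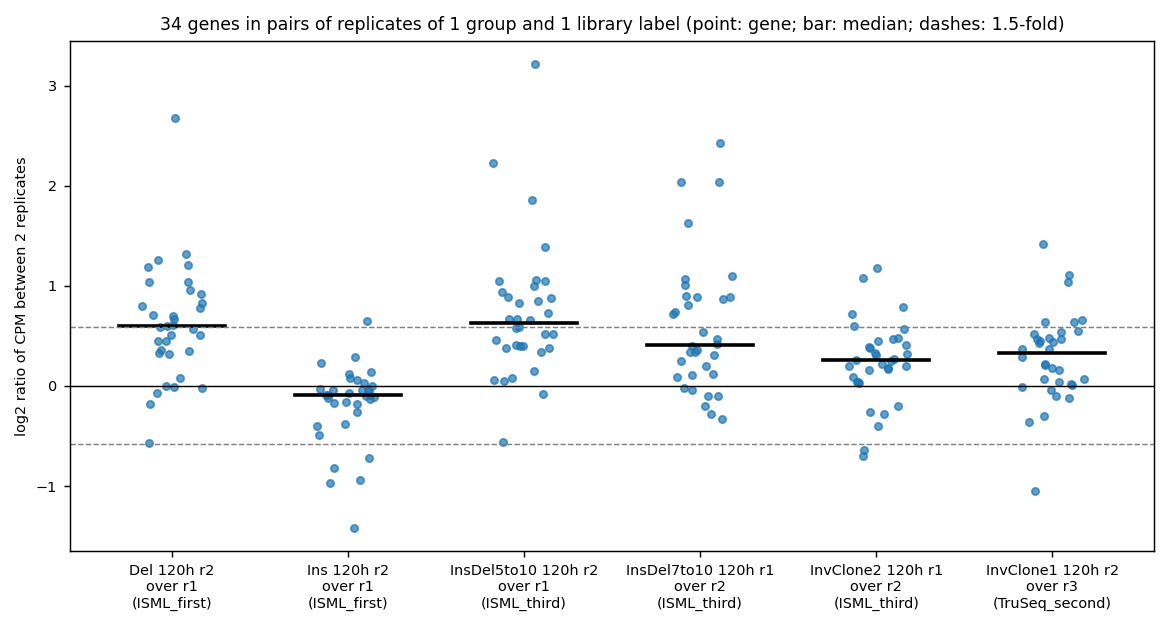
Log2 ratio of CPM between 2 replicates of the same group and library label for 34 genes (points; Adm and Car9 are left out), with the median as a bar and 1.5-fold as dashed lines. Most points of every pair except Ins lie above 0, and most of those of Ins lie below 0.

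Other HIF targets and markers of other tissues moved with these gaps, and their part in them was not tested. Pgm1, phosphoglucomutase, was 27.1 and 114 CPM in Del, 25.3 and 99.99 CPM in InsDel5to10 and 44.4 and 32.7 CPM in InsDel7to10 (replicates 1 and 2). The summed level of 8 endothelial markers was 13.0 and 63.6 CPM in Del, 11.8 and 72.4 CPM in InsDel5to10, and 51.2 and 8.24 CPM in InsDel7to10. The library with the higher hypoxia targets had the higher endothelial sum in each of these 3 pairs. In InvClone2, however, it was 12.3 CPM in replicate 1 and 119 CPM in replicate 2, and there the median ratio of the 35 genes, replicate 1 over replicate 2, was 1.2. The 9 endoderm markers summed to 55.8 and 152 CPM in Del, 54.4 and 189 CPM in InsDel5to10 and 33.2 and 14.5 CPM in InsDel7to10. The 7 presomitic markers were lower in Del replicate 2 (182 against 395 CPM), close in InsDel5to10 (297 in replicate 2 against 304 CPM) and higher in InsDel7to10 replicate 1 (595 against 365 CPM). The 8 genes of heat shock and necrosis summed to 112 and 108 CPM in Del and to 102 and 104 CPM in InsDel5to10, but to 130.3 and 93.6 CPM in InsDel7to10. The 7 pluripotent and germ cell markers summed to 9.67 and 27.0 CPM in Del, 1.80 and 46.9 CPM in InsDel5to10 and 3.18 and 1.38 CPM in InsDel7to10, and the 8 cardiac and lateral mesoderm markers to 2.82 and 6.21 CPM, 1.95 and 9.90 CPM and 6.97 and 3.29 CPM. Both sums, like the endoderm sum, were higher in all 3 libraries with more Egln1. In InvClone2, where replicate 1 had more Egln1 (104 against 92.7 CPM), these sums were lower in replicate 1. Endoderm markers summed to 54.0 and 137 CPM there, pluripotent markers to 21.9 and 43.0 CPM and cardiac markers to 2.83 and 8.15 CPM. Tailbud markers summed to 526 and 348 CPM in Del, 468 and 342 CPM in InsDel5to10 and 402 and 306 CPM in InsDel7to10. The 8 proliferation genes summed to 3284 and 3194 CPM in Del, 2989.5 and 3349 CPM in InsDel5to10 and 3056 and 3141 CPM in InsDel7to10. In the same order neural tube markers summed to 144 and 224 CPM, 141 and 65.6 CPM and 207.5 and 65.1 CPM. Somite markers summed to 1032.5 and 841 CPM, 773 and 973 CPM and 1537 and 1190.5 CPM.

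The library label itself went with 2 of the 35 genes. Between ISML_second and ISML_first, compared through Del and Ins at 120h, which hold both labels, Vegfa rose and Pgam1 fell, against 2.3% of all genes that passed. Vegfa, the vascular growth factor, was 54.6, 54.2, 52.0 and 29.4 CPM in the ISML_first libraries (Del replicates 1 and 2, Ins replicates 1 and 2) and 123 and 117 CPM in the ISML_second libraries of Del and Ins (log2 fold change 1.36, SE 0.30, adjusted p = 0.0394, edgeR). Both ISML_second libraries lay above all 4 of ISML_first. Pgam1 was 226, 283, 238 and 224 CPM in ISML_first and 150.5 and 142 CPM in ISML_second (log2 fold change -0.73, SE 0.15, adjusted p = 0.0251, edgeR). Gapdh, 3444, 4420.0, 3319 and 3609.6 CPM against 2322 and 2199 CPM, missed the threshold (log2 fold change -0.71, SE 0.20, adjusted p = 0.0852, edgeR). All 3 genes showed no overlap between labels. Over the 35 genes the median was -0.27, with 27 below 0. Without replicate 1 of Del 1 of the 2 genes still passed (Pgam1), and without any other of the 6 Del and Ins libraries 0 of the 35 did. The call of Vegfa was also lost without both libraries that stand apart (log2 change 1.35, edgeR adjusted p = 0.0526), although 2 of the 35 passed in that fit. The summed endothelial markers were 10.0 to 63.6 CPM in the ISML_first libraries and 107 to 196 CPM in the 120h ISML_second libraries, and their part in the change of Vegfa was not tested.

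From 120h to 144h, 7 of 35 genes rose (all genes 9.25%) and 3 fell (all genes 5.94%) in the 5 lines of ISML_second. Adm, Pfkp, P4ha2, Ldhb, Pfkfb3, P4ha1 and Egln1 rose, and Ndrg1, Slc2a3 and Vegfa fell. The test was edgeR's quasi-likelihood F-test with line and stage as terms. Higher in all 5 lines were 9 of 35 genes (all genes 14.8%) and lower in all 5 were 4 of 35 (all genes 18%). The median log2 change of the 35 genes was 0.11, against -0.01 over all genes. Values below are in the order Del, Ins, InsDel8to10, InvClone1 and InvDel7to10.

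Among the transporters, Slc2a3 (ENSMUSG00000003153, chr6:122727809-122801640, mm10, as are the positions that follow) fell. It was 392, 332, 394, 374 and 308 CPM at 120h and 173, 317, 194, 210.1 and 222 CPM at 144h (log2 fold change -0.70, SE 0.15, adjusted p = 0.0198, edgeR). The fall was large in Del and InsDel8to10 and small in Ins, whose 144h value lay within the range of the 120h libraries. Without the InvClone1 library at 144h its log2 change was -0.67 (edgeR adjusted p = 0.159). Slc2a1, the more abundant importer, was 719, 602, 627, 671 and 594 CPM at 120h and 617, 672, 656, 802 and 671 CPM at 144h (log2 fold change 0.11, SE 0.08, adjusted p = 0.433, edgeR), and its stages overlapped.

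The abundant enzymes did not pass the threshold in either direction. The log2 change was -0.00 for Gapdh, 0.02 for Pgk1, 0.06 for Ldha, 0.08 for Aldoa and 0.08 for Hk2. Of the 15 enzymes from hexokinase to pyruvate kinase only Pfkp passed. Pfkp (ENSMUSG00000021196, chr13:6579768-6648777) was 2.78, 3.80, 3.15, 3.71 and 3.42 CPM at 120h and 4.00, 6.73, 3.88, 6.92 and 4.88 CPM at 144h (log2 fold change 0.64, SE 0.14, adjusted p = 0.0194, edgeR). Every 144h library was above all 5 of 120h, though Ins at 120h and InsDel8to10 at 144h nearly met. The InvClone1 library at 144h, which stands apart in mitochondrial transcripts, was the highest of the 10 in most enzymes: Pkm was 2312, 2403, 2179, 5567 and 2210.1 CPM at 144h, Pfkl 390.2, 454, 375, 840.1 and 386 CPM and Eno1 912, 989, 843, 1772 and 866 CPM. Its 5567 CPM of Pkm was above that of all other 25 libraries. Eno2 was lower at 144h in all 5 lines (-1.09, edgeR adjusted p = 0.0709) and missed the threshold, as did Tpi1, which was higher in all 5 (0.28, edgeR adjusted p = 0.0758).

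Of the lactate dehydrogenases, Ldhb, the heart type that favours pyruvate, rose while Ldha did not pass. Ldhb (ENSMUSG00000030246, chr6:142490249-142507957) was 78.4, 72.3, 68.3, 71.2 and 70.9 CPM at 120h and 95.5, 91.5, 93.1, 156 and 101 CPM at 144h (log2 fold change 0.56, SE 0.13, adjusted p = 0.0201, edgeR). Every 144h library exceeded all those of 120h, and the rise was largest in InvClone1. Without that library the log2 change was 0.40 (edgeR adjusted p = 4.83e-06). Pdk1 and Pdk3, which hold pyruvate back from the mitochondria, had log2 changes of -0.08 and 0.00 (edgeR adjusted p = 0.482 and 0.989).

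Pfkfb3, whose product fructose-2,6-bisphosphate activates phosphofructokinase, rose in all 5 lines. Pfkfb3 (ENSMUSG00000026773, chr2:11471433-11554077) was 28.1, 31.6, 33.2, 33.4 and 30.8 CPM at 120h and 41.9, 48.7, 42.7, 41.4 and 43.3 CPM at 144h (log2 fold change 0.49, SE 0.07, adjusted p = 0.00329, edgeR). The stages did not overlap and the lines lay close together. Pfkfb4, its relative, was 10.4, 7.79, 7.86, 8.80 and 8.26 CPM and 9.48, 8.50, 9.81, 10.4 and 9.48 CPM (log2 fold change 0.17, SE 0.11, adjusted p = 0.345, edgeR), with overlap.

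**Figure D4:**
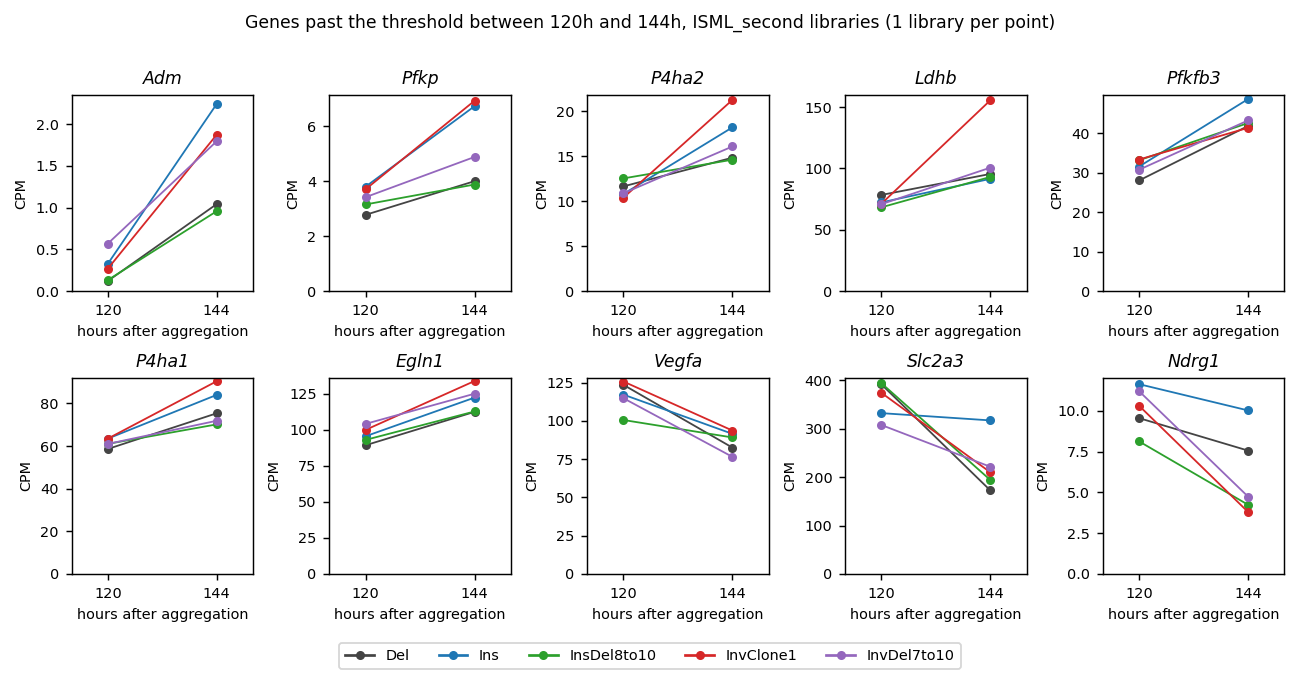
CPM (from 0) of the 10 genes past the threshold between 120h and 144h after aggregation, with 1 point per library and 1 line per cell line. The 7 genes that rose are shown first and the 3 that fell last. InvClone1 at 144h is the highest point for Ldhb, P4ha2, P4ha1 and Egln1, and for Pfkp, where Ins at 144h lies close below.

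Of the oxygen sensors Egln1 rose. Egln1 (ENSMUSG00000031987, chr8:124908587-124949324) was 89.3, 95.6, 93.0, 100 and 104 CPM at 120h and 112, 122, 113, 134 and 125 CPM at 144h (log2 fold change 0.35, SE 0.06, adjusted p = 0.00511, edgeR), with no overlap between stages. Egln3 was 7.88, 9.71, 6.79, 10.9 and 8.40 CPM and 9.22, 11.8, 10.0, 8.69 and 8.65 CPM (log2 fold change 0.18, SE 0.13, adjusted p = 0.419, edgeR), with overlap.

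Both collagen prolyl hydroxylases rose. P4ha1 (ENSMUSG00000019916, chr10:59323296-59373304) was 58.6, 63.5, 61.0, 63.5 and 61.0 CPM at 120h and 75.4, 84.0, 70.2, 90.4 and 71.9 CPM at 144h (log2 fold change 0.36, SE 0.07, adjusted p = 0.0112, edgeR). P4ha2 (ENSMUSG00000018906, chr11:54100095-54131662) was 11.6, 10.8, 12.5, 10.4 and 10.9 CPM at 120h and 14.8, 18.2, 14.6, 21.2 and 16.1 CPM at 144h (log2 fold change 0.60, SE 0.13, adjusted p = 0.0195, edgeR). For both every 144h library lay above all 120h libraries, and Ins and InvClone1 rose most. Adm (ENSMUSG00000030790, chr7:110627661-110629820) rose from few reads: 3, 7, 3, 7 and 12 at 120h to 24, 53, 21, 36 and 39 at 144h (log2 fold change 2.53, SE 0.28, adjusted p = 8.35e-04, edgeR). In CPM this was 0.122, 0.328, 0.133, 0.270 and 0.570 at 120h and 1.04, 2.24, 0.958, 1.87 and 1.80 at 144h, so that all 5 lines rose although the level stayed near or below 2 CPM.

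Vegfa and Ndrg1 fell. Vegfa (ENSMUSG00000023951, chr17:46016993-46032369) was 123, 117, 101, 126 and 115 CPM at 120h and 82.5, 91.5, 89.1, 93.6 and 76.5 CPM at 144h (log2 fold change -0.40, SE 0.08, adjusted p = 0.0104, edgeR). All 144h values were below all 120h values in these ISML_second libraries. In the ISML_third libraries of InvClone1, 1 at each stage, Vegfa was instead 29.5 CPM at 120h and 46.2 CPM at 144h. Ndrg1 (ENSMUSG00000005125, chr15:66929318-66969640), a stress and differentiation gene, was 9.55, 11.6, 8.13, 10.3 and 11.2 CPM at 120h and 7.56, 10.0, 4.24, 3.80 and 4.74 CPM at 144h (log2 fold change -0.79, SE 0.20, adjusted p = 0.0306, edgeR). It fell in all 5 lines, least in Ins and Del, and the stages overlapped. So the 9 hypoxia targets that were tested split: 3 rose, 2 fell, and Bnip3, Ankrd37, Ddit4 and Mxi1 did not pass (log2 change -0.19, 0.42, -0.29 and 0.32).

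Leaving out 1 library takes its line out of the stage comparison. Of the 35 genes 15 then passed without InvClone1 at either stage, 7 without Ins, 7 without InsDel8to10, 6 without Del and 5 without InvDel7to10. Of all genes tested 31.8 to 31.9% passed without InvClone1, 10.8 to 10.9% without Ins, 9.07 to 9.17% without InsDel8to10, 9.09 to 9.21% without Del and 9.35 to 9.56% without InvDel7to10. Adm, Pfkfb3 and Egln1 passed in all of these 10 fits. Ldhb and Ndrg1 missed the threshold without InsDel8to10 or InvDel7to10, P4ha1 without Ins or Del, P4ha2 without Ins or InvDel7to10, and Vegfa without InvDel7to10 or Del. Pfkp missed it without Ins, InvDel7to10 or Del, and Slc2a3 without InsDel8to10, InvClone1 or Del. The ISML_third libraries of InvClone1, 1 at each stage and without a test, lie outside this comparison. Their ratio of 144h to 120h was 2.11 for Adm, 1.82 for Ldhb, 1.08 for Egln1, 1.03 for Pfkfb3 and 1.03 for P4ha2. It was 0.934 for Pfkp and 0.844 for P4ha1, which did not rise there. Slc2a3 and Ndrg1 stood at 0.476 and 0.390, but Vegfa at 1.565. A fit of all 26 libraries with group and library label passed 2 of the 35 (9.89% of all genes), Ldhb (log2 change 0.51, edgeR adjusted p = 0.0235) and Eno2 (log2 change -1.22, edgeR adjusted p = 0.0138). Tissue markers moved at the same time: the summed level of 8 tailbud markers was 393 to 486 CPM at 120h and 104 to 295 CPM at 144h, that of 7 presomitic markers 303 to 407 and 138 to 176 CPM, and that of 8 neural tube markers 127 to 185 and 391 to 664 CPM. All 8 tailbud genes and 6 of 7 presomitic genes fell (all genes 5.94%) and all 8 neural tube genes rose (all genes 9.25%). Of 8 somite genes 7 fell and 1 rose, and of 8 endoderm genes tested 4 rose and 2 fell. Of 5 cardiac genes tested 3 rose, and of 8 endothelial genes 1 rose and 2 fell. Of 6 heat shock and necrosis genes tested 1 rose and 2 fell. Among the notochord and neural crest genes tested, 1 of 4 and 1 of 2 rose. None of the 8 proliferation and 6 pluripotent genes tested passed. The part of this shift in the changes above was not tested.

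Other genes of the pathway came from lists chosen by function. Of 13 regulators of HIF, 3 rose (all genes 9.25%) and 1 fell (all genes 5.94%) from 120h to 144h. Epas1, the HIF2 alpha subunit, was 10.5, 7.46, 8.61, 7.10 and 9.07 CPM at 120h and 12.3, 13.5, 14.1, 14.5 and 12.8 CPM at 144h (log2 fold change 0.68, SE 0.14, adjusted p = 0.0124, edgeR). Vhl, which tags HIF for destruction, and Arnt2 rose by less (log2 change 0.27 and 0.25, edgeR adjusted p = 0.0219 and 0.0432). Hif3a, an inhibitory family member, fell from 25.9, 25.8, 32.2, 27.5 and 28.7 CPM to 17.5, 23.8, 18.1, 15.3 and 17.9 CPM (log2 fold change -0.59, SE 0.12, adjusted p = 0.0131, edgeR). Hif1a itself did not pass, with 253, 249.8, 255, 238 and 256 CPM at 120h and 232, 237, 249, 185 and 229 CPM at 144h. The call of Epas1 was lost without Ins or InsDel8to10, that of Hif3a without InsDel8to10, InvDel7to10 or Del, and those of Vhl and Arnt2 without any line other than InvClone1.

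Of 32 further HIF targets tested, 7 rose (all genes 9.25%) and 1 fell (all genes 5.94%). Bhlhe40, a repressor, was 2.53, 3.52, 2.75, 3.78 and 3.37 CPM at 120h and 7.65, 10.7, 9.03, 7.50 and 6.35 CPM at 144h (log2 fold change 1.38, SE 0.16, adjusted p = 0.00105, edgeR). Igfbp3, which binds insulin-like growth factors, was 20.8, 23.7, 25.4, 29.1 and 36.8 CPM and 58.2, 74.3, 56.1, 64.0 and 62.5 CPM (log2 fold change 1.25, SE 0.13, adjusted p = 5.47e-04, edgeR). Pgm1 was 26.3, 30.3, 24.8, 31.6 and 26.8 CPM and 45.2, 65.2, 42.4, 90.4 and 46.9 CPM (log2 fold change 1.02, SE 0.13, adjusted p = 0.00132, edgeR). In all 3 genes every 144h library was above all of 120h. In the fit of all 26 libraries Bhlhe40 and Pgm1 missed the threshold (edgeR adjusted p = 0.218 and 0.279), and Igfbp3 passed. Plod1, a collagen lysyl hydroxylase, fell from 98.5, 107, 105, 104 and 111 CPM to 54.6, 60.3, 49.9, 60.2 and 59.7 CPM (log2 fold change -0.87, SE 0.07, adjusted p = 1.43e-04, edgeR). Bnip3l, related to Bnip3, was the target that differed with the library label (log2 change -0.57 in ISML_second against ISML_first, edgeR adjusted p = 0.045), where Epas1 also differed (2.18, edgeR adjusted p = 0.00853). The call of Bnip3l was kept only without replicate 1 of Del among the 6 fits that left out 1 Del or Ins library, and was lost without both libraries that stand apart (edgeR adjusted p = 0.0553). That of Epas1 was lost without replicate 3 of Del or of Ins.

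Of 14 other glycolytic genes tested at the stage step, Hk3, a further hexokinase, rose from between 0 and 0.0888 CPM to between 1.04 and 2.97 CPM (edgeR adjusted p = 2.82e-04), and Adpgk, an ADP-dependent glucokinase, fell (-0.39, edgeR adjusted p = 0.0335). The call of Adpgk was lost without InsDel8to10, InvDel7to10 or Del and in the fit of all 26 libraries. None of the 11 genes tested around pyruvate dehydrogenase passed. Of 13 genes of the pentose phosphate and serine branches 1 rose (Rpia, 0.67, edgeR adjusted p = 0.00274) and 3 fell (Mthfd2, Shmt2 and Psat1, -0.64, -0.54 and -0.43, edgeR adjusted p = 6.58e-04, 0.00116 and 0.00257). Of 4 genes of gluconeogenesis tested, Pck2, its mitochondrial carboxykinase, fell (-0.87, edgeR adjusted p = 0.00473). At this stage step 9.25% of all genes rose and 5.94% fell.

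In the integrated stress response, which Atf4 drives when amino acids are short, 7 of 12 genes fell (all genes 5.94%) and none rose (all genes 9.25%). Chac1, which degrades glutathione, was 15.3, 14.9, 12.9, 17.3 and 13.0 CPM at 120h and 3.04, 4.82, 3.33, 3.38 and 3.59 CPM at 144h (log2 fold change -2.0, SE 0.14, adjusted p = 1.09e-04, edgeR). Trib3 was 11.7, 11.2, 8.93, 9.0 and 7.60 CPM and 3.52, 3.81, 3.28, 3.33 and 2.62 CPM (log2 fold change -1.52, SE 0.11, adjusted p = 1.26e-04, edgeR). Both genes fell in every line, and Asns and Slc3a2 fell by less (-0.69 and -0.43, edgeR adjusted p = 9.84e-04 and 0.00204). Of 10 growth genes, the amino acid transporter Slc7a5 and Myc fell (-0.59 and -0.63, edgeR adjusted p = 0.00126 and 0.00484). In the fit of all 26 libraries Chac1, Trib3, Slc3a2, Slc7a5, Myc and Psat1 missed the threshold (edgeR adjusted p = 0.054 to 0.0852) with log2 changes of the same sign, and Asns passed.

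Between the lines, 1 gene of all these lists passed, Arnt, which is 1 of the 13 HIF regulators tested. It passed for InsDel7to10 against InvClone2 (all genes 0.141%) and against InsDel5to10 (all genes 0.253%). A single call over lists and comparisons this many is not a result about the lists. Arnt, the partner of every HIF alpha subunit, was 106 and 120.1 CPM in InsDel7to10, 73.5 and 67.6 CPM in InsDel5to10 and 71.8 and 70.3 CPM in InvClone2. It was higher in InsDel7to10 than in InsDel5to10 (log2 fold change 0.68, SE 0.11, adjusted p = 0.0231, edgeR) and than in InvClone2 (log2 fold change 0.67, SE 0.11, adjusted p = 0.0451, edgeR), and these comparisons share the InsDel7to10 libraries. Over the other 24 libraries it ran from 53.7 to 80.4 CPM, below both. Its call against InsDel5to10 was lost without either InsDel5to10 replicate or without replicate 1 of InsDel7to10, and that against InvClone2 without either InvClone2 replicate. Both calls were also lost without the library label in the fit (edgeR adjusted p = 0.317 and 0.456), and in fits of the compared libraries alone, with or without a replicate block, while the log2 change stayed between 0.58 and 0.77 in every alternative run.

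InvClone1 was followed through 4 stages within ISML_third, with 1 library per stage, so there is no replicate check and no test. From 96h to 120h, 9 of 35 genes were at least 2-fold lower (all genes 12%) and 1 higher (all genes 7.5%). From 120h to 144h, 3 were at least 2-fold lower (all genes 4.54%) and 0 higher (all genes 9.3%). From 144h to 168h, 14 were at least 2-fold higher (all genes 10.8%) and 0 lower (all genes 3.1%). The median ratio of the 35 genes was 0.640, 1.07 and 1.84 for these steps, against 0.970, 1.01 and 1.04 over all genes.

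The 120h library was low in most enzymes. Aldoa was 1246, 510.2, 640.4 and 1018 CPM at 96h, 120h, 144h and 168h, and Pfkl was 318, 134, 186 and 386 CPM. Slc16a3 followed the same course with 85.5, 31.8, 34.1 and 149.7 CPM. All 3 were lowest at 120h. The same line at 120h held 1006, 748 and 994 CPM of Aldoa in replicates 2, 3 and 4, which carry other labels. Ddit4 was 437, 84.1, 74.3 and 146 CPM and highest at 96h. Ndrg1 went the other way at first, with 4.91, 12.1, 4.70 and 15 CPM. Tissue markers differed between 96h and 120h as well. Presomitic markers summed to 1204 and 160.0 CPM, tailbud markers to 675 and 378 CPM, somite markers to 1820.0 and 863 CPM, endoderm markers to 250.3 and 64.8 CPM and pluripotent markers to 88.0 and 29.3 CPM. Neural crest markers were 21.3 and 190.3 CPM, neural tube markers 24.9 and 79.0 CPM and endothelial markers 9.95 and 49.2 CPM. Their part in the step was not tested.

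At 168h most hypoxia targets were above their level at 144h. Egln1 was 54.8, 81.1, 87.4 and 199.9 CPM and Egln3 28.5, 9.37, 6.74 and 19.3 CPM over the 4 stages. Bnip3 was 74.9, 69.6, 32.3 and 129 CPM and 3.98-fold higher at 168h than at 144h. P4ha2 was 14.3, 10.1, 10.4 and 29.8 CPM. For Egln1, Bnip3 and P4ha2 the 168h library was the highest of the 4 stages, whereas Egln3 was highest at 96h, and the level of P4ha2 there was the highest of all 26 libraries. Pdk1, which holds pyruvate back from the mitochondria, at 133, 145, 99.1 and 217 CPM, and Pfkfb3, at 39.0, 38.2, 39.6 and 88.1 CPM, had the highest values of all libraries at 168h. Vegfa was 46.7, 29.5, 46.2 and 103 CPM. Among genes that are not in the set, Pgm1 went from 38.7 to 128 CPM and Ero1l, an oxidase of protein folding, from 56.9 to 146 CPM in that step, both named after their values were seen. Ldhb, 141 and 132 CPM, and Gapdh, 2244 and 2526 CPM, changed little. The summed tailbud markers were 98.7 CPM at 144h and 45.2 CPM at 168h, and the endothelial markers stood at 55.0 and 68.1 CPM. Neural tube markers stood at 359 and 847 CPM, presomitic markers at 101 and 228 CPM, and cardiac markers at 5.90 and 21.8 CPM. Somite markers (444 and 247 CPM), the 5 neural crest markers (160.3 and 68.7 CPM) and pluripotent markers (55.2 and 8.14 CPM) were lower at 168h. The part of these shifts in the step was not tested.

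**Figure D5:**
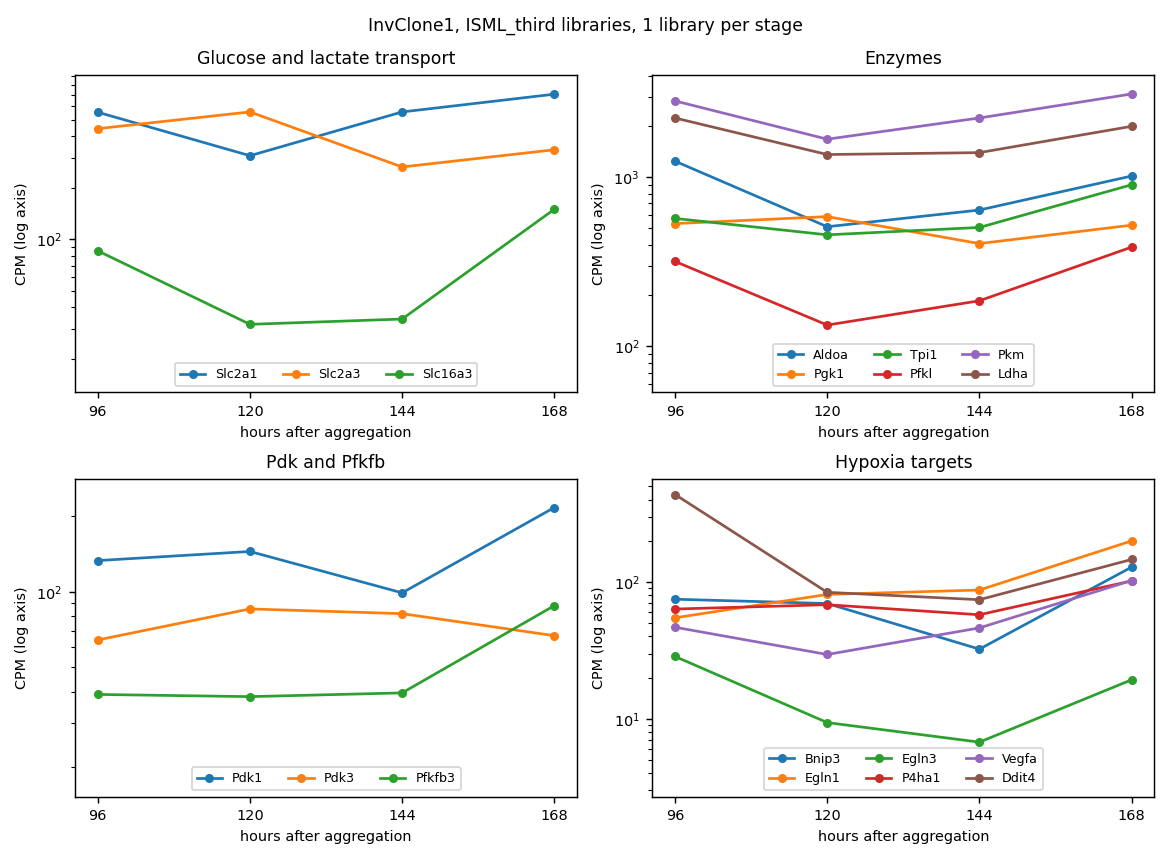
CPM (log axes) of selected genes by role in the 4 ISML_third libraries of InvClone1, at 96h, 120h, 144h and 168h after aggregation, with 1 library per stage. Pfkfb3, Pdk1, Egln1, Bnip3 and P4ha1 are highest at 168h, and Aldoa, Pfkl and Slc16a3 lowest at 120h.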

How the data were processed

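The 26 RNA-seq libraries (polyadenylated RNA of mouse gastruloids) form 15 groups, taken like the library label from the sample annotation. Per the labels' protocols, most libraries used Illumina's ISML kit, and replicates 2 and 3 of InvClone1 at 120h TruSeq Stranded mRNA. The count table that the authors deposited holds raw read counts per gene. The tools named are STAR 2.7.10a, cutadapt 1.18 and Cufflinks 2.2.1 with the build mm10, per the submitters' processing notes. The counter is named only by the table's name (HTSeq). The sources used here do not state its strand setting or annotation, so overlapping and antisense genes are uncertain. The authors' FPKM values (Cufflinks), which also gave the positions, served only to compare levels between genes. Of the tables' columns 8 matched no sample and were not used.

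Counts were tested in edgeR 4.0.16 (R 4.3.3; quasi-likelihood F-test, robust, TMM, minimum count 10, Benjamini-Hochberg, threshold 0.05). One fit held all 26 libraries (group and library label; 8 residual degrees of freedom), in which a lone library is assumed to vary like the others, and one held the 10 ISML_second libraries (line and stage; 4 residual degrees of freedom). The standard error is the log2 change divided by the square root of F. CPM are counts over TMM library sizes. Folds without a test added 0.1 CPM and used 1.5-fold (replicates) or 2-fold (stages). Total counts had a median of 22616412, and intervals given by 3 reads cover counting error only. Replicates differed by a chi-square of 14.7 to 200.3 per degree of freedom, so none was counted as a duplicate. The methods were also run on counts simulated from the fitted models themselves. That run cannot show how the tests behave where those models are wrong, and no result here rests on it.

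Named were the genes past the threshold, or the 3 with the smallest p where fewer passed, and up to 4 per pathway list. The members and lists were chosen with earlier results of these data known. Same-numbered replicates of Ins and Del deviated together (correlation 0.60, 0.36 and 0.73 for replicates 1, 2 and 3; replicate 3 is ISML_second in both). These numbers were taken as pairs only in the alternative with a replicate block. The main fit, which gave the values printed for Ins against Del, did not pair them. The correlations were 0.19, 0.48 and 0.08 for InvClone1 against Ins, 0.41 for InsDel5to10 against InvClone2, -0.27 for InsDel7to10 against InvClone2 and -0.17 for InsDel7to10 against InsDel5to10. Alternatives were DESeq2 1.42.0 and its size factors, no filter, a minimum count of 50, fits without the library label, with a replicate block or of the compared libraries alone, and leaving out each library.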

Additional observations from a re-analysis of the deposited data

Results flagged for a closer look

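In the 4 InvClone1 libraries at 120h, 3 of the 34 genes examined had a library far from the others by Dixon's ratio (above the 95% critical value for 4 values). Chance meets this rule in about 1 of 20 groups of like replicates. These 4 libraries carry the labels ISML_third, TruSeq_second and ISML_second, so they are not like replicates. The rule was not run over all genes, so the count is a description and not a result about these genes. Vegfa was 29.5, 32.2, 39.7 and 126 CPM in replicates 1 to 4 (ratio 0.894). Eno2 was 0.785, 0.598, 0.571 and 2.05 CPM (ratio 0.855). In both genes replicate 4, the ISML_second library, was far above the rest. P4ha2 was 10.1, 12.0, 10.2 and 10.4 CPM (ratio 0.852), and here replicate 2 was highest, the library with reads on more genes than any other.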

How the results depend on the processing

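None of the 35 genes passed for Ins against Del or InvClone1 against Ins under any alternative run, nor in the 3 comparisons among InsDel5to10, InsDel7to10 and InvClone2 except without the filter on low counts, where 5 (InsDel5to10 against InvClone2), 3 (InsDel7to10 against InvClone2) and 6 (InsDel7to10 against InsDel5to10) did. The unfiltered fit also called 12 of them for ISML_second against ISML_first, and over all genes 89, 9, 383, 554 and 957 in the 5 line comparisons, 1802 for the label and 50 among the 5 lines of ISML_second. The counts of all genes with the filter were 1, 3, 27, 25, 45, 409 and 5. A minimum count of 50 gave 265 genes for the label. DESeq2 called 45, 163 and 285 genes in the 3 comparisons among InsDel5to10, InsDel7to10 and InvClone2, 717 for the label (4 of the 35) and 100 among the 5 lines. Without the library label these 3 comparisons gave 6, 0 and 7 genes. Ins and Del fitted alone with the label gave 2421 genes and 4 of the 35 for the label, and the fit of all libraries called 2 of the 35 between stages.

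Fitted on the compared libraries alone, Ins against Del gave 0 genes, InsDel7to10 against InvClone2 0 and InsDel7to10 against InsDel5to10 4. With the replicate block, the 5 line comparisons gave 2, 0, 932, 0 and 3 genes and 0 of the 35 in each; the block changed no other call on the 35. With the numbers of InsDel7to10 crossed, an alternative added after the data were seen, the block gave 0 genes against InvClone2 and 4 against InsDel5to10.

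Leaving out 1 library at a time, the genes called ran from 0 to 295 (InsDel7to10 against InvClone2), 3 to 939 (InsDel7to10 against InsDel5to10), 3 to 9 (InsDel5to10 against InvClone2), 3 to 303 (InvClone1 against Ins), 39 to 260 (label), 1379 to 4853 (stage) and 3 to 6686 (any line). Of the 35 genes, 0 to 1 passed for the label, 5 to 15 for stage and 0 to 21 among the 5 lines. The median log2 change of the 35 genes changed sign in 4 comparisons, running from -0.34 to 0.01 (Ins against Del), -0.07 to 0.57 (InsDel5to10 against InvClone2), -0.30 to 0.15 (InsDel7to10 against InvClone2) and -0.54 to 0.06 (InsDel7to10 against InsDel5to10), and for InvClone1 against Ins it was -0.13 without the library label. The cause was not tested. Adm, with at most 12 reads in any 120h library of the stage comparison, is limited by depth.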

Other observations

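Ddit4, which blocks mTOR under stress, had no wide gap in Del (replicate 2 over replicate 1, 1.06). There 5 of the 9 hypoxia targets tested were at least 1.5-fold higher. Vegfa, Ankrd37 and Mxi1 also lacked a wide gap in Del (0.992, 0.8835 and 1.28). Ddit4 was 437 CPM in InvClone1 at 96h, 378 and 92.3 CPM in replicates 1 and 2 of InsDel7to10, 134 and 267 CPM in those of InsDel5to10, and 174 and 184 CPM in those of Del, a pair that stood wide apart in Egln1 and Bnip3. Mxi1 was 57.0 CPM in InvClone1 at 168h, the highest of the 26 libraries, and 30.9 CPM at 144h. Atf4-driven genes, as the summed level of 12 genes of the integrated stress response, stood at 952 and 840.5 CPM in replicates 1 and 2 of Del and at 960.2 and 763 CPM in those of InsDel5to10, lower in the libraries with more Egln1, but at 852 and 646 CPM in those of InsDel7to10, higher in the library with more Egln1. These values carry no test and were chosen after they were seen.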
